A study of Mus musculus with 12 samples.

Results

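The genes described here mark lymphocytes: 16 genes of T cells and cytotoxic cells and 13 genes of B cells and plasma cells, taken by name (current or older symbol, with Faim3 now called Fcmr). Of these 29 genes, 26 had a probe that the array annotation names, against 19057 genes with such a probe in the whole series, and 18 were bright enough to be tested in the lung and 17 in the ileum. Each gene is read from its brightest detected probe, and T cell and B cell genes are given apart. The choice of genes was made with earlier results of these data known.

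T cells recognize antigen with a receptor that signals through the CD3 chains and the kinase Zap70. B cells signal through the chains Cd79a and Cd79b, and after activation they can become plasma cells, which secrete antibody. In mice, the lung and the gut hold few lymphocytes at birth and fill with them over the first weeks of life. In the ileum, lymphocytes gather in Peyer's patches, in the lamina propria and between epithelial cells, and plasma cells there make IgA for the lumen.

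RNA from 12 samples was hybridised to MouseWG-6 v2.0 bead arrays, 3 for each of 4 groups: hyperoxia lung, normoxia lung, hyperoxia ileum and normoxia ileum. The mice were C57BL/6 pups (C57Bl/6J in the methods), 14 days old, that had breathed 85% oxygen (hyperoxia) or 21% oxygen (normoxia) between day 3 and day 14 of life. The samples were pieces of lung (right lung in the labels, left lower lobe in the methods) or of terminal ileum, so fewer lymphocytes and less RNA per lymphocyte cannot be told apart in any value below. Pups came from pooled litters, the labels used here name no litter, dam or animal, so litter and exposure cannot be told apart, and the p-values rest on variation among arrays that is perhaps technical.

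Between 42.6% and 46.0% of probes were detected on each array. For 6 of the 12 arrays the labels name different tissues in different fields. The tissue field was used, and 9 lung markers averaged a log2 level of 5.01 and 5.09 in the 2 ileum groups and 13.1 and 13.2 in the 2 lung groups. The 95th percentile of signal over background was 11.2 to 12.9 in hyperoxia ileum and 15.1 to 15.5 in normoxia ileum, against 14.3 to 18.3 in hyperoxia lung and 15.1 to 16.3 in normoxia lung. Its part in the ileum results was not tested.

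The lymphocyte label could be checked only in part. No named probe was given for Lck, a kinase of the T cell receptor, for the granzyme Gzma or for Cd79a, and these 3 genes were not analysed here. Cd8a, Cd4, Cd5, Cd7 and the granzyme Gzmb, and among B cell genes Jchain (the joining chain of secreted antibody) and Cr2 (a complement receptor), were not detected on any of the 12 arrays. Ms4a1, which encodes CD20, was detected on 1 lung array and was not tested. Thus the defining genes of CD4 and CD8 alpha were below background in both tissues, while 9 T cell genes passed the detection filter in each tissue. For B cells, 9 genes passed in the lung and 8 in the ileum, where Igll1 did not. The filter asked that, on 3 or more of a tissue's 6 arrays, the detection p-value be under 0.05.

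The promoters of 4 genes are shown because the 3 CD3 genes lie side by side and moved together on these arrays, and because Vpreb3 was the only one of the 20 genes with a promoter to carry the octamer bound by the factor that Pou2af1 coactivates. All 29 genes matched a RefSeq gene (GRCm38.p6), and 20 had a promoter there (11 T cell and 9 B cell genes). Cd3g and Cd3d are transcribed away from each other from starts 1355 bases apart on chromosome 9, with Cd3e 27825 bases from Cd3d. The sequences are the 250 bases before a RefSeq start, 5′ to 3′ on the gene's strand: chr9:44980432-44980681 (minus) for Cd3g, chr9:44981536-44981785 (plus) for Cd3d, chr9:45009612-45009861 (minus) for Cd3e and chr10:75948050-75948299 (plus) for Vpreb3. The RefSeq span of Cd3e, Cd3d and Vpreb3 begins upstream of the start used here, and the Vpreb3 window lies inside the annotated gene. In the CD3 promoters, capitals mark the E box CACCTG and the ETS core AGGAAG, and in Vpreb3 the octamer ATGCAAAT, each on either strand.
Cd3g: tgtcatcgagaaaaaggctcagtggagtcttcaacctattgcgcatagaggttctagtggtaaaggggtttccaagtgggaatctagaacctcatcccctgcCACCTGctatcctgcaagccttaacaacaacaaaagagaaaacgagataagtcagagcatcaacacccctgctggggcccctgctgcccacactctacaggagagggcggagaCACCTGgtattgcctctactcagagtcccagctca
Cd3d: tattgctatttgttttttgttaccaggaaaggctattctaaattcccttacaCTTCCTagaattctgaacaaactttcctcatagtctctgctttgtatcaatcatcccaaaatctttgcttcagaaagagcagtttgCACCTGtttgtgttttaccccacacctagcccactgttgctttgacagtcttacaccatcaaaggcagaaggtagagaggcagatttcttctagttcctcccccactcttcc
Cd3e: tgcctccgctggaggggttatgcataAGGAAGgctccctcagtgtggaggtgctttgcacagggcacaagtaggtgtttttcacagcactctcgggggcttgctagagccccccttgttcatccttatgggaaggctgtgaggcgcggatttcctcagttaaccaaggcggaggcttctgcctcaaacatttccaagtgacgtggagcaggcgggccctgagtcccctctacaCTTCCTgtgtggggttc
Vpreb3: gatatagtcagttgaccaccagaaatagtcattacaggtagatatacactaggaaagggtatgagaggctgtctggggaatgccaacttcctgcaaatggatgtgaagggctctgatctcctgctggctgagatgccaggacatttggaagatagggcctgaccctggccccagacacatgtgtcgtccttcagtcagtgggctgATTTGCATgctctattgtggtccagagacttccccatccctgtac
The E box was found at 148 and 35 bases before the Cd3g start and at 112 before that of Cd3d, and it was not in the Cd3e window. The ETS core was found at 198 bases before the Cd3d start and at 224 and 17 before that of Cd3e, and it was not in the Cd3g window. None of the marked motifs overlap. Among all 32851 RefSeq promoters, 17.2% of such windows held the E box, 29.5% the ETS core and 1.60% the octamer. Of the 20 genes with a promoter, 11, 8 and 1 held them. A further E box, CAGCTG, was in 4271 of all windows and in 2 of the 20, and the RUNX core TGTGGT was in 14.0% and in 7. A match describes letters in a window and not a bound site.

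In the lung, T cell and B cell genes fell together under hyperoxia. Of 9 tested T cell genes, 8 were called lower and 1 (Cd8b1) higher at an adjusted p under 0.05, against 10.6% of all 11214 genes tested called lower and 9.90% called higher. Of 9 tested B cell genes, 8 were called lower, and Igll1 did not pass. Without hyperoxia lung replicate 2, normoxia lung replicate 2 or normoxia lung replicate 3, the B cell count was 5, 4 and 5. The median log2 fold change was -1.50 over the T cell genes and -1.29 over the B cell genes, against 0.02 over all genes tested. All 3 hyperoxia arrays lay below all 3 normoxia arrays for 8 T cell and 9 B cell genes, against 20.9% of all genes tested.

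Among the CD3 chains, which carry the signal of the T cell receptor into the cell, Cd3e had log2 levels of 5.58, 6.28 and 7.28 in hyperoxia lung, against 7.70, 8.04 and 7.77 in normoxia lung. The hyperoxia arrays spread over a far wider range than the normoxia arrays without reaching them. The log2 fold change of Cd3e was -1.46 (SE 0.33, adjusted p = 0.00594). Cd3g stood at 6.04, 6.74 and 7.80 in hyperoxia lung, against 8.12, 8.49 and 8.12 in normoxia lung, and Cd3d at 5.37, 6.24 and 7.73 in hyperoxia lung, against 8.28, 8.43 and 8.20 in normoxia lung. For all 3 chains the hyperoxia arrays kept the same order, with replicate 1 lowest and replicate 3 nearest to normoxia. The log2 fold changes were -1.39 for Cd3g (SE 0.34, adjusted p = 0.00973) and -1.85 for Cd3d (SE 0.43, adjusted p = 0.00679). A second Cd3e probe gave -1.25 (adjusted p = 0.0108 in a fit over probes).

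The genes of cytotoxic cells held the largest fall of the T cell group. Nkg7, a membrane protein of cytotoxic granules in natural killer and CD8 T cells, had log2 levels of 4.84, 5.44 and 6.14 in hyperoxia lung, against 7.92, 8.35 and 7.53 in normoxia lung. It was detected on 2 of 3 hyperoxia arrays and on all 3 normoxia arrays, and the groups were more than a log2 unit apart. Its log2 fold change was -2.45 (SE 0.33, adjusted p = 0.000132). Klrd1, which encodes the receptor chain CD94 of natural killer cells, stood at 5.62, 5.91 and 6.14 in hyperoxia lung, against 7.61, 7.90 and 7.35 in normoxia lung. Both groups were tight, and the log2 fold change was -1.73 (SE 0.21, adjusted p = 5.25e-05).

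The remaining T cell genes act in adhesion, costimulation and signaling. Cd2, an adhesion receptor of T and natural killer cells, was at 5.61, 5.49 and 6.15 in hyperoxia lung, against 7.64, 7.77 and 7.20 in normoxia lung. The groups were again separate, with a log2 fold change of -1.79 (SE 0.24, adjusted p = 0.000129). Cd27, a costimulatory receptor of the TNF receptor family, fell by 1.50 on the log2 scale (SE 0.34, adjusted p = 0.0057), while a dimmer second probe gave -0.37 and did not pass (adjusted p = 0.288 over probes). Zap70, the kinase recruited to the CD3 chains, fell by 1.04 (SE 0.24, adjusted p = 0.00813), and a second probe fell by 0.80 (adjusted p = 0.00872 over probes).

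**Figure D1:**
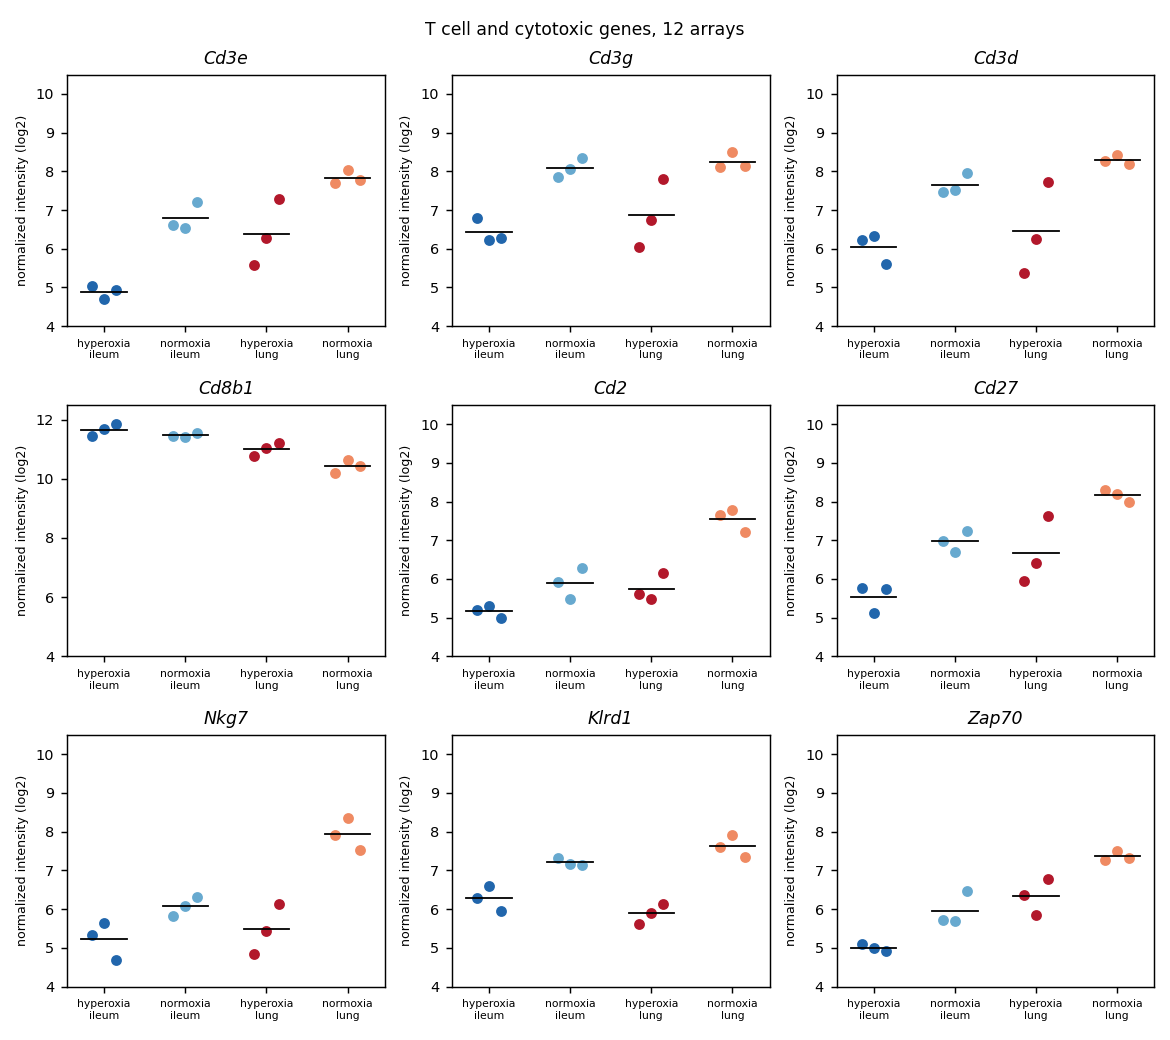
Normalized log2 intensity of the 9 tested T cell and cytotoxic genes on each of the 12 arrays, by group; each point is 1 array (replicates 1 to 3 from left to right) and the line is the group mean. Apart from Cd8b1, every gene lies lower in hyperoxia than in normoxia lung on all arrays, and hyperoxia lung replicate 3 is the highest of its group in all 9 panels.

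Cd8b1, the beta chain of the CD8 coreceptor, was the T cell gene called higher, and its probes disagreed. The brightest probe read 10.78, 11.04 and 11.19 in hyperoxia lung, against 10.18, 10.65 and 10.44 in normoxia lung. The groups did not overlap, and on this probe all 12 arrays, ileum included, lay within 2 log2 units. Its log2 fold change was 0.58 (SE 0.18, adjusted p = 0.0314), and the call was lost without any of 4 arrays (hyperoxia lung replicate 2 or 3, normoxia lung replicate 1 or 3; adjusted p = 0.0749 to 0.14). The next probe read 5.43, 7.27 and 8.58 in hyperoxia lung, against 8.48, 8.77 and 8.43 in normoxia lung. That is the same order of hyperoxia arrays as for the CD3 chains, with replicate 3 inside the normoxia range. Its log2 fold change was -1.47 (SE 0.53, adjusted p = 0.0718 over probes), and the third probe gave -0.22 (adjusted p = 0.667). With the mean of all detected probes the direction for Cd8b1 turned to -0.37 (adjusted p = 0.454). Cd8a, whose product pairs with that of Cd8b1, was not detected on any array.

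**Figure D2:**
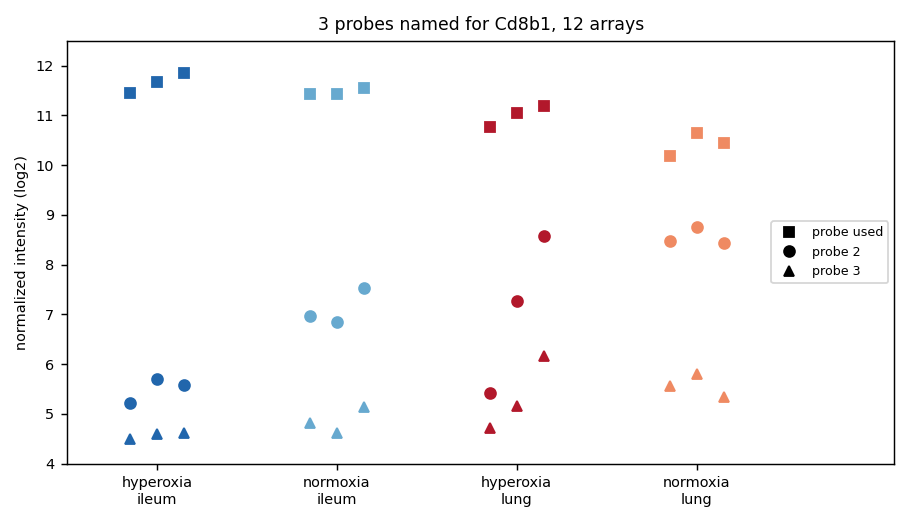
Normalized log2 intensity of the 3 probes named for Cd8b1 on the 12 arrays, by group and replicate; squares are the brightest probe, circles the second and triangles the third. The brightest probe stays between 10.18 and 11.85 on all arrays, whereas the second lies at 5.21 to 5.71 in hyperoxia ileum and 6.85 to 7.52 in normoxia ileum.

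In hyperoxia lung, the levels of these genes also spread between arrays. Across the 18 genes tested, the SD was larger in hyperoxia than in normoxia lung for 14, with medians of 0.652 and 0.214 for T cell genes and 0.324 and 0.205 for B cell genes. Replicate 3 was the highest hyperoxia lung array for 16 of the 18 and replicate 1 the lowest for 14. The shares over all genes were not computed, so these counts have no figure to be set against. Over all probes, replicates correlated at r from 0.984 to 0.99 in hyperoxia lung and from 0.99 to 0.992 in normoxia lung. A wider spread is therefore not shown to be particular to these genes. Over the 8 T cell genes other than Cd8b1, the mean log2 level was 5.67, 6.05 and 6.96 in hyperoxia lung, against 7.86, 8.09 and 7.69 in normoxia lung. Replicate 3 also had the highest level of 8 genes shared by all leukocytes (8.97, 9.17 and 9.83 in hyperoxia lung, against 9.54, 9.74 and 9.36 in normoxia lung). It was the highest hyperoxia lung array for macrophage markers as well (9.53, 9.64 and 10.0, against 8.72, 8.89 and 8.79 in normoxia lung) and for mast cell markers (7.18, 7.38 and 8.45, against 6.47, 6.23 and 6.29 in normoxia lung). Without hyperoxia lung replicate 3, the fall of Cd3d was -2.50, and without replicate 1 it was -1.31, both still called.

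Among the B cell genes in lung tissue, those of the receptor chain and the IgM receptor fell most clearly. Cd79b, which with Cd79a carries the signal of the B cell receptor, had log2 levels of 8.10, 8.24 and 8.63 in hyperoxia lung, against 9.98, 9.96 and 9.89 in normoxia lung. Both groups were narrow and stood more than a log2 unit apart. The log2 fold change was -1.62 (SE 0.22, adjusted p = 0.000179), and a second probe gave -1.62 as well. Fcmr, the Fc receptor for IgM, was at 6.73, 6.76 and 7.25 in hyperoxia lung, against 8.98, 9.45 and 9.26 in normoxia lung. This was the largest fall of any B cell gene, with a log2 fold change of -2.32 (SE 0.26, adjusted p = 3.42e-05). Fcrla, an Fc receptor-like protein of B cells, was at 6.50, 6.84 and 7.15 in hyperoxia lung, against 8.14, 8.44 and 8.30 in normoxia lung. It fell by 1.46 (SE 0.20, adjusted p = 0.000172), and its 3 other probes gave falls of 0.92 to 1.78, all called over probes.

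Signaling and transcription genes of B cells fell as well. Blk, a Src-family kinase of the B cell receptor, had a log2 fold change of -1.29 (SE 0.27, adjusted p = 0.00416), and Pou2af1, the coactivator of octamer-binding factors, of -1.51 (SE 0.38, adjusted p = 0.0118; adjusted p = 0.0588 without normoxia lung replicate 2). Cd22, an inhibitory lectin of B cells, read 5.37, 5.36 and 6.58 in hyperoxia lung, against 6.71, 6.98 and 6.85 in normoxia lung. Here replicate 3 of hyperoxia lay just under the normoxia arrays, and the log2 fold change was -1.07 (SE 0.35, adjusted p = 0.0435).

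Of the genes of secretion and of early B cells, Mzb1, an endoplasmic reticulum protein that helps antibody secretion, read 6.79, 6.86 and 7.70 in hyperoxia lung, against 8.09, 8.50 and 8.39 in normoxia lung. Its log2 fold change was -1.21 (SE 0.38, adjusted p = 0.0391). Vpreb3, a B-lineage protein that binds nascent antibody chains, read 7.66, 7.37 and 6.87 in hyperoxia lung, against 7.92, 8.12 and 9.06 in normoxia lung. It was the only called gene here whose hyperoxia replicate 3 was the lowest of its group, and it fell by 1.07 (SE 0.33, adjusted p = 0.0349). Igll1, part of the surrogate light chain of pre-B cells, read 5.08, 5.25 and 5.30 in hyperoxia lung, against 5.40, 5.56 and 5.36 in normoxia lung. All 6 values lay close to the detection limit, and the log2 fold change of -0.23 did not pass (SE 0.17, adjusted p = 0.37). The calls of Cd22, Mzb1 and Vpreb3 were lost when 1 of 8, 7 and 4 arrays was left out (adjusted p = 0.0574 to 0.158, 0.0514 to 0.128 and 0.0539 to 0.146). For Vpreb3 these were hyperoxia lung replicates 2 and 3 and normoxia lung replicates 2 and 3. For Cd22 and Mzb1 they were hyperoxia lung replicates 1 and 2 and all normoxia lung arrays, with the 3 normoxia ileum arrays for Cd22 and with hyperoxia ileum replicate 2 and normoxia ileum replicate 2 for Mzb1.

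**Figure D3:**
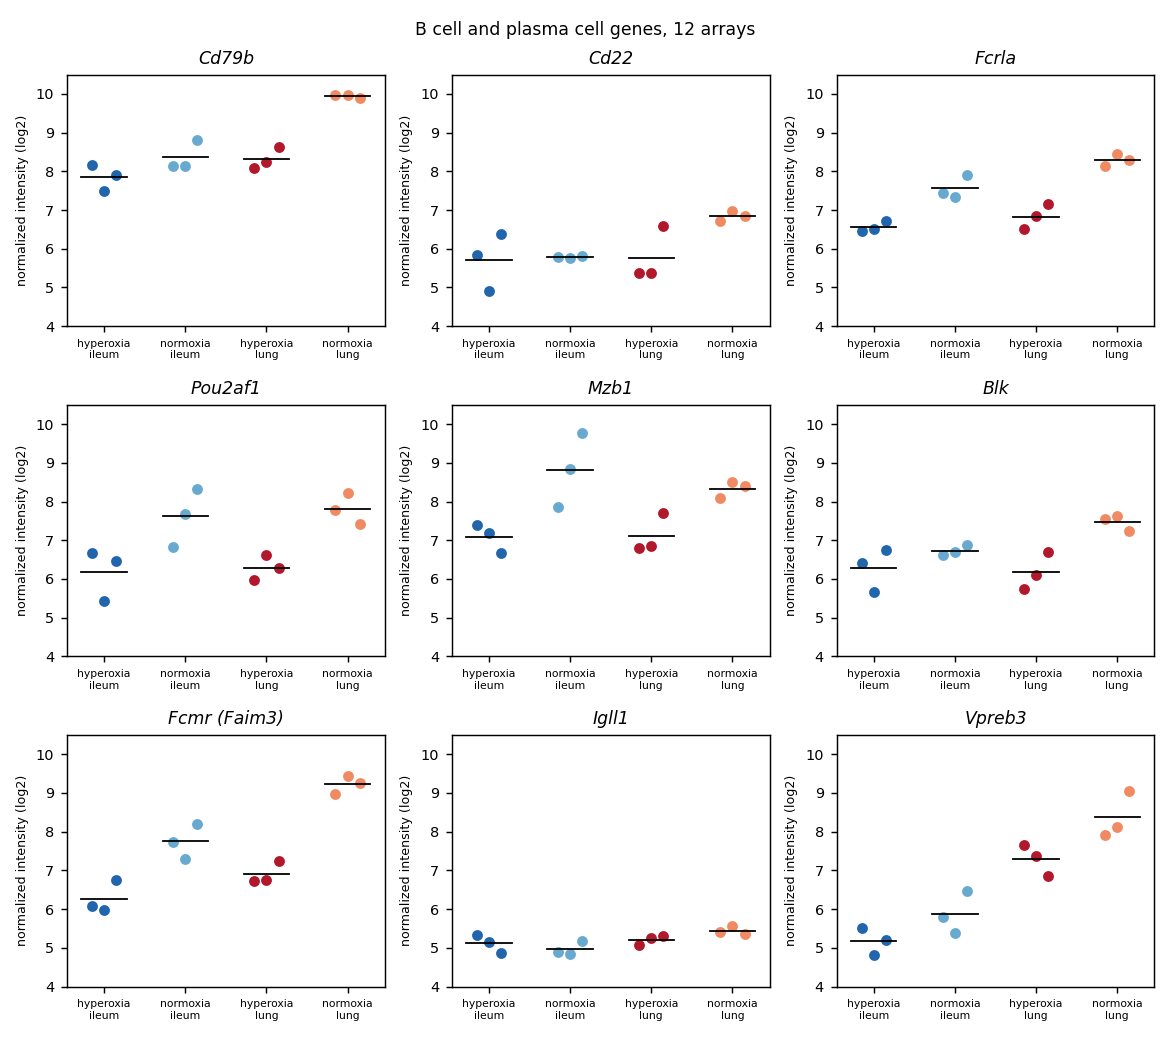
Normalized log2 intensity of the 9 B cell and plasma cell genes tested in the lung or in the comparisons between tissues, on each of the 12 arrays; each point is 1 array (replicates 1 to 3 from left to right) and the line is the group mean. Fcmr and Cd79b show the clearest gap between hyperoxia and normoxia lung, and in the ileum the groups of Cd79b, Cd22, Blk and Vpreb3 overlap.

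In the terminal ileum, the T cell genes fell again, and the B cell genes fell in part. Of 9 tested T cell genes, 7 were called lower and none higher, against 14.1% of all 11178 genes tested called lower and 12.7% called higher. Of 8 tested B cell genes, 4 were called lower, and 4 did not pass. The median log2 fold change was -0.96 over the T cell genes (-0.94 with genes undetected in a group at their bound) and -0.86 over the B cell genes, against -0.03 over all genes tested. The hyperoxia arrays lay below all normoxia arrays for 8 T cell and 4 B cell genes, against 21.1% of all genes tested. A further limit is that 3 T cell genes (Cd3e, Cd2 and Zap70) were detected, with the brightest probe, on all 3 normoxia arrays and on no hyperoxia array, so they entered the test through the normoxia group alone, and 4 of the 6 others were called lower.

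Cd3e read 5.04, 4.71 and 4.94 in hyperoxia ileum, against 6.62, 6.53 and 7.21 in normoxia ileum. As none of the hyperoxia values was above background, the fall has only a bound, taken from the lowest signal detected on those arrays, of at least 2.93-fold (adjusted p = 0.00182). The second Cd3e probe, detected on 4 of the 6 ileum arrays, gave a log2 fold change of -1.41 (adjusted p = 0.00638 over probes), a smaller fall than this bound. Cd3g, which was detected on every ileum array, read 6.80, 6.23 and 6.28 in hyperoxia ileum, against 7.86, 8.07 and 8.35 in normoxia ileum. The groups stood about a log2 unit apart, and in contrast to the lung the hyperoxia arrays were close together. The log2 fold change was -1.65 (SE 0.34, adjusted p = 0.00444). Cd3d fell by 1.59 (SE 0.42, adjusted p = 0.0158), with levels of 6.24, 6.32 and 5.60 in hyperoxia ileum, against 7.46, 7.51 and 7.96 in normoxia ileum.

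In hyperoxia ileum, the bound for Zap70 was a fall of at least 1.66-fold (adjusted p = 0.0127) and for Cd2 of at least 1.58-fold (adjusted p = 0.0365). Cd27 fell by 1.43 (SE 0.33, adjusted p = 0.00859). Klrd1 read 6.29, 6.60 and 5.94 in hyperoxia ileum, against 7.33, 7.16 and 7.14 in normoxia ileum, without overlap, and fell by 0.94 (SE 0.21, adjusted p = 0.00646). Nkg7 read 5.34, 5.65 and 4.67 in hyperoxia ileum, against 5.82, 6.08 and 6.33 in normoxia ileum. These groups did not overlap either, but the log2 fold change of -0.86 did not pass (SE 0.32, adjusted p = 0.0638). It passed without hyperoxia lung replicate 1 or 3 or hyperoxia ileum replicate 2 (adjusted p = 0.0389 to 0.0459). The brightest Cd8b1 probe gave 0.19 (adjusted p = 0.44). The second Cd8b1 probe read 5.21, 5.71 and 5.58 in hyperoxia ileum, against 6.98, 6.85 and 7.52 in normoxia ileum, a log2 fold change of -1.62 (adjusted p = 0.0379 over probes), and with the mean of all detected probes the direction turned to -0.72 (adjusted p = 0.115).

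Single arrays moved some of these calls. Without normoxia ileum replicate 3, 7 T cell genes were left to test and 4 were called. Cd3d lost its call without hyperoxia ileum replicate 3 or normoxia ileum replicate 3 (adjusted p = 0.0617 and 0.0713), and Cd2 without hyperoxia ileum replicate 1 or 3 (adjusted p = 0.05 and 0.103). The Cd2 call was lost in 10 of 20 settings in all, among them no background correction, 75th percentile scaling, an offset of 50, no detection filter, each tissue fitted alone, the ordinary linear model and array weights (highest adjusted p = 0.135).

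Among B cell genes of the ileum, Mzb1, Pou2af1, Fcmr and Fcrla fell. Mzb1 read 7.40, 7.18 and 6.67 in hyperoxia ileum, against 7.87, 8.85 and 9.76 in normoxia ileum. The normoxia arrays ranged widely and all lay above the hyperoxia arrays, and the log2 fold change of -1.74 was the largest fall of a B cell gene in this tissue (SE 0.38, adjusted p = 0.00635). Pou2af1 read 6.67, 5.43 and 6.47 in hyperoxia ileum, against 6.82, 7.69 and 8.34 in normoxia ileum. The nearest arrays of the groups almost touched, and the log2 fold change was -1.43 (SE 0.38, adjusted p = 0.0154). It lost its call without hyperoxia ileum replicate 2 or normoxia ileum replicate 3 (adjusted p = 0.057 and 0.0809). Fcmr read 6.07, 5.97 and 6.76 in hyperoxia ileum, against 7.74, 7.30 and 8.20 in normoxia ileum, and fell by 1.48 (SE 0.26, adjusted p = 0.00194). Fcrla fell by 1.00 (SE 0.20, adjusted p = 0.00414), and 2 further probes gave falls of 0.96 and 0.85, both called over probes.

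The receptor and its kinase did not pass in the ileum. Cd79b read 8.16, 7.49 and 7.90 in hyperoxia ileum, against 8.14, 8.15 and 8.81 in normoxia ileum. The groups overlapped, and the log2 fold change was -0.52 (SE 0.22, adjusted p = 0.1; adjusted p = 0.0457 without hyperoxia ileum replicate 1). Cd22 read 5.85, 4.91 and 6.39 in hyperoxia ileum, around normoxia values of 5.78, 5.75 and 5.81, with a log2 fold change of -0.06 (SE 0.35, adjusted p = 0.907). Blk gave -0.46 (SE 0.27, adjusted p = 0.226) and Vpreb3 -0.72 (SE 0.33, adjusted p = 0.12). With array weights, Cd79b, Cd22 and Blk were also called lower, so that 7 of 8 B cell genes passed. That setting raised the calls over all 11178 genes as well, from 1574 to 2384 lower and from 1421 to 2289 higher.

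**Figure D4:**
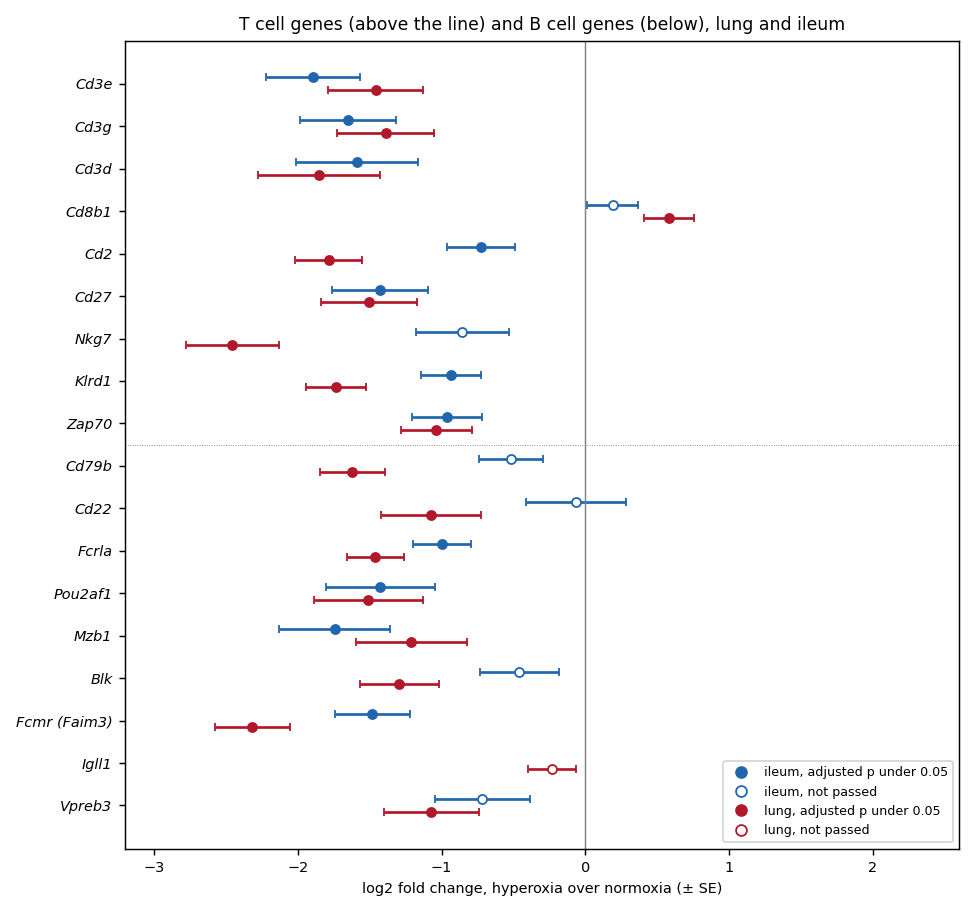
Log2 fold change of hyperoxia over normoxia with its standard error, in ileum (blue) and lung (red), for the genes tested in each; filled points had an adjusted p under 0.05, and the ileum points of Cd3e, Cd2 and Zap70 are fitted values with hyperoxia below background. All T cell genes but Cd8b1 lie left of 0 in both tissues, and the B cell genes Cd79b, Cd22 and Blk lie nearer to 0 in the ileum.

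Next, the effects of the oxygen exposure in the 2 tissues were set against each other, as the effect in ileum minus that in lung, over the same 12 arrays. Of 9 T cell genes, 2 had a positive difference at an adjusted p under 0.05, and of 9 B cell genes, 1 did, against 12.0% of all 12400 genes tested. A called negative difference, found for 1608 genes, was found for none of these 18. In either direction, 3100 of the 12400 genes were called, so 3 of 18 is no larger a share than over all genes. Nkg7 had log2 fold changes of -0.86 in ileum and -2.45 in lung, a difference of 1.60 (SE 0.46, adjusted p = 0.0223). Cd79b had -0.52 in ileum and -1.62 in lung, a difference of 1.10 (SE 0.32, adjusted p = 0.0223), and a second probe gave 1.27 (adjusted p = 0.0131 over probes). The fitted difference of Cd2 was 1.06 (SE 0.33, adjusted p = 0.0335), but its hyperoxia ileum values were below background, so its fall in ileum has only a bound and need not be smaller than that in lung. The fitted falls of Nkg7 and Cd79b were smaller in the ileum. However, Nkg7 averaged only 6.07 in normoxia ileum and was detected on 2 of 3 hyperoxia ileum arrays. A fall as large as in lung would have taken it below background there and could not have been measured. Nkg7, Cd79b and Cd2 were all lower in normoxia ileum than in normoxia lung. Each call was lost when 1 of several arrays was left out. For Nkg7 these were hyperoxia ileum replicate 2, normoxia ileum replicate 1, hyperoxia lung replicate 1 and normoxia lung replicate 2 (adjusted p = 0.0506 to 0.0604). For Cd79b they were normoxia ileum replicates 1 and 2, hyperoxia lung replicate 1 and normoxia lung replicate 1 (adjusted p = 0.0513 to 0.0591). For Cd2 they were hyperoxia ileum replicate 2, normoxia ileum replicates 1 and 2, hyperoxia lung replicates 1 and 2 and normoxia lung replicates 1 and 2 (adjusted p = 0.0545 to 0.0846).

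For the other genes the difference did not pass, and it ran from -0.43 to 0.80 over 7 T cell genes and from -0.53 to 1.01 over 8 B cell genes. The CD3 chains were among these, at -0.43 for Cd3e (SE 0.46, with hyperoxia ileum below background), -0.26 for Cd3g (SE 0.48) and 0.26 for Cd3d (SE 0.60). With errors of this size, a miss of the threshold does not show that the tissues responded alike. Klrd1 came nearest to the threshold at 0.80 (adjusted p = 0.0597) and passed without hyperoxia ileum replicate 3, hyperoxia lung replicate 3 or normoxia lung replicate 3 (adjusted p = 0.0229 to 0.047). Blk passed without hyperoxia ileum replicate 2 (adjusted p = 0.032), and Cd22, at 1.01, passed without hyperoxia lung replicate 3 or hyperoxia ileum replicate 2 (adjusted p = 0.0319 and 0.0311). The second Zap70 probe, detected on 1 ileum array, gave a difference of 0.80 (adjusted p = 0.0448 over probes), against 0.08 for the brighter one. Of the 8 T cell genes called lower in lung, 7 were also called lower in ileum, where no other T cell gene was. Of the 8 B cell genes called lower in lung, 4 were also called lower in ileum, where no other B cell gene was. Among these, Cd3e, Cd2 and Zap70 entered the ileum test through normoxia ileum alone. The share of all genes called lower in both tissues was not computed, so this overlap has no figure to be set against.

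Between the tissues in normoxia, most of these genes were dimmer in ileum than in lung. Of 9 T cell genes, 5 were called lower and 1 higher in ileum, and of 9 B cell genes, 7 were called lower, against 28.8% of all 12400 genes tested called lower and 25.5% called higher. These normoxia arrays are also the controls of the oxygen comparisons above. Vpreb3 read 5.80, 5.38 and 6.47 in normoxia ileum, against 7.92, 8.12 and 9.06 in normoxia lung, the largest gap of any gene here, with a log2 fold change of -2.48 (SE 0.33, adjusted p = 1.84e-05). Nkg7 was lower in ileum by a log2 fold change of -1.86 (SE 0.32, adjusted p = 0.000227), Cd2 by -1.65 (SE 0.24, adjusted p = 3.76e-05), Cd79b by -1.58 (SE 0.22, adjusted p = 3.42e-05), Fcmr by -1.48 (SE 0.26, adjusted p = 0.000244) and Zap70 by -1.40 (SE 0.24, adjusted p = 0.000221). Cd27, Cd3e, Cd22, Blk and Fcrla were called lower by 0.73 to 1.19. Igll1 was not detected in normoxia ileum, which gives a bound of at least 1.12-fold for its lower level there (adjusted p = 0.0294).

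Some genes did not follow this order. Cd3g was at 7.86, 8.07 and 8.35 in normoxia ileum, against 8.12, 8.49 and 8.12 in normoxia lung, with overlapping groups (adjusted p = 0.727). Pou2af1 gave -0.19 (adjusted p = 0.701) and Mzb1 0.50 (adjusted p = 0.294), and Mzb1 passed at 0.98 without normoxia ileum replicate 1 (adjusted p = 0.0257). Cd3d gave -0.66 (adjusted p = 0.209; adjusted p = 0.0421 without hyperoxia lung replicate 3) and Klrd1 -0.41 (adjusted p = 0.11). The brightest Cd8b1 probe was higher in ileum by 1.05 (adjusted p = 0.000159), while the mean of its probes gave -0.37 (adjusted p = 0.34). The calls of Blk, Igll1, Cd3e and Cd22 were lost without 1 of 4, 4, 2 and 1 arrays, with the highest adjusted p at 0.106, 0.106, 0.0589 and 0.056. They were normoxia lung replicate 2 for all 4 genes, normoxia ileum replicate 2 for Blk, Igll1 and Cd3e, and normoxia ileum replicate 1 and normoxia lung replicate 1 for Blk and Igll1. Without normoxia lung replicate 2, 4 B cell genes were called.

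Other genes of the same pathways were listed alongside. In lung, 10.6% of all genes tested were called lower and 9.90% higher. All lists were chosen with earlier results of these data known, so their shares are not ranked against those above. Of 10 tested genes of T cell receptor signaling, 3 were called lower, led by the kinase Prkcq at -1.88 (SE 0.21, adjusted p = 3.52e-05) and the coreceptor Cd6 at -1.61 (adjusted p = 0.0101). Among 10 genes of T cell identity and homing, 3 were called lower, among them the transcription factors Ets1 at -1.15 (adjusted p = 9.33e-05) and Gata3 at -1.32 (adjusted p = 0.000287), and Itgae, the integrin chain CD103, was called higher at 1.78 (adjusted p = 8.77e-05). Ets1 and Gata3 are also expressed by cells other than lymphocytes. Of 5 further cytotoxic and natural killer genes, 3 fell: the chemokine Ccl5 by 2.88 (SE 0.30, adjusted p = 1.88e-05), Ctsw by 0.96 (adjusted p = 0.0192) and the receptor Klra4 to below background, at least 1.86-fold (adjusted p = 0.00254). Of 17 further B cell genes, 10 were called lower, with Cd72 at -1.09 (adjusted p = 0.000225), the follicle-homing receptor Cxcr5 at -1.41 (adjusted p = 0.000353) and Spib at least 1.8-fold lower (adjusted p = 0.00121). Of the genes named here, Klra4 and Spib were detected on no hyperoxia lung array. They entered the test through normoxia lung alone, so they could hardly have come out higher. Medians were -0.67, -0.64, -0.98 and -0.91 over these 4 lists. The call of Ctsw was lost without hyperoxia lung replicate 1 or 2 or normoxia lung replicate 2 (adjusted p = 0.0519 to 0.0932).

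Set against the 14.1% of all genes called lower in the ileum, 2 of 9 genes of T cell receptor signaling were called lower there, Fyb at -1.08 (adjusted p = 0.0142) and Cd6 at least 1.74-fold (adjusted p = 0.0165). Among T cell identity and homing genes, 1 of 9 was called lower, a share below that of all genes, namely Thy1 at -0.81 (adjusted p = 0.0331). Of 4 further cytotoxic and natural killer genes, Ccl5 was lower, by at least 4.34-fold (adjusted p = 0.000138), and the pore-forming protein gene Prf1 higher, at 1.07 (adjusted p = 0.0396). Of 17 further B cell genes, 4 were called lower, with Ly6d at -1.88 (adjusted p = 0.00104) and the adaptor Blnk at -0.77 (adjusted p = 0.0165). Cd6, Ccl5 and Fcer2a, which is 1 of these 4 B cell genes, were detected on no hyperoxia ileum array. They entered the test through normoxia ileum alone, so they could hardly have come out higher. Plasma cell and antibody genes were lower for 3 of 7, namely Sdc1, which encodes the plasma cell marker CD138 and is also made by epithelium, at -1.30 (adjusted p = 0.000291), Creld2 at -0.70 (adjusted p = 0.0281) and Irf4 at -0.87 (adjusted p = 0.043). In lung, none of 8 plasma cell and antibody genes was called lower and Sdc1 was called higher, at 0.52 (adjusted p = 0.0467). Single arrays decided several of these calls. That of Sdc1 in lung was lost without any lung array or without normoxia ileum replicate 1 or 2 (adjusted p = 0.0534 to 0.151), and that of Irf4 without any of 9 arrays, the exceptions being hyperoxia lung replicates 1 and 3 and normoxia ileum replicate 1 (adjusted p = 0.0504 to 0.192). Creld2 lost its call without hyperoxia ileum replicate 1 or 3 or normoxia ileum replicate 1 or 3 (adjusted p = 0.0577 to 0.544), Thy1 without hyperoxia ileum replicate 2 or 3 or normoxia ileum replicate 2 or 3 (adjusted p = 0.0822 to 0.117), Fyb without hyperoxia ileum replicate 3 or normoxia ileum replicate 2 or 3 (adjusted p = 0.0548 to 0.062) and Blnk without normoxia ileum replicate 2 or 3 (adjusted p = 0.0623 and 0.0723).

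**Figure D5:**
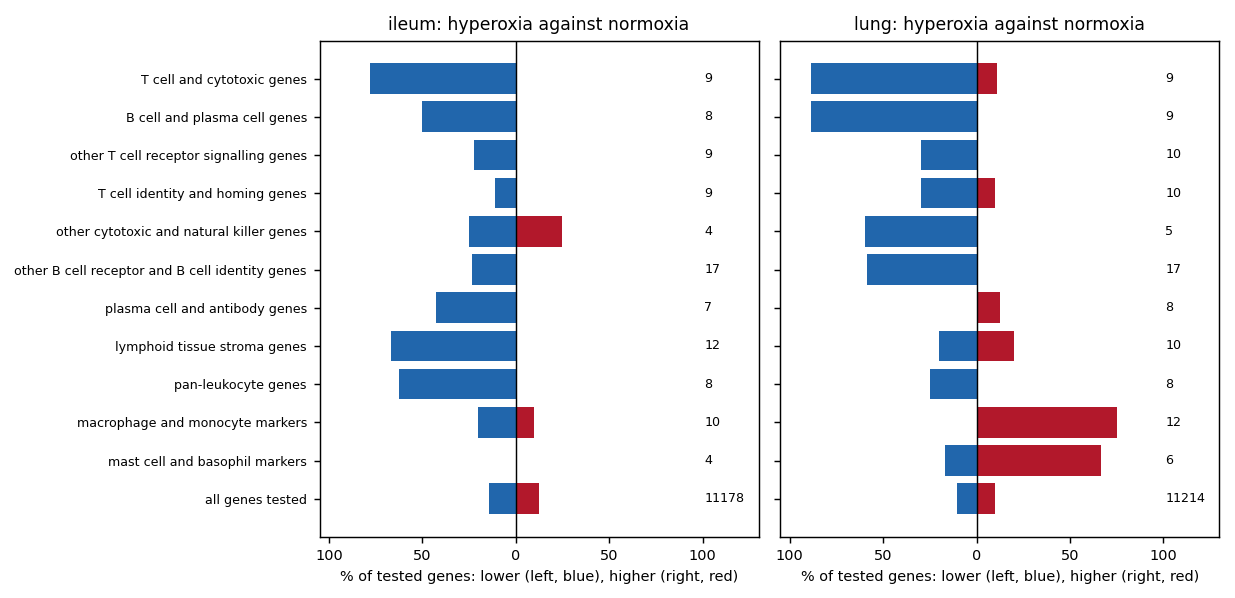
Share of the tested genes of each list called lower (blue, left) or higher (red, right) in hyperoxia against normoxia, in ileum and lung, with the number tested at the right of each panel and all genes tested in the bottom bar. In the lung, 8 of 9 T cell and 8 of 9 B cell genes of this report were called lower, and 9 of 12 macrophage and monocyte markers higher. The genes and lists were chosen with earlier results known, so the order of their shares is not a result.

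Markers of other cells changed as well, in the lung partly in the opposite direction, and their part in the results was not tested. Over all genes tested in the lung, 10.6% were called lower and 9.90% higher. In the lung, 9 of 12 tested macrophage and monocyte markers were called higher (median log2 fold change 1.15), among them Cd14 at 1.14 and Adgre1 at 1.19, and the summed level of the 13 with a probe was 26370 to 29650 in hyperoxia lung, against 19840 to 21440 in normoxia lung. Ccr2 and Siglec1 were not detected in normoxia lung. Of 6 mast cell and basophil markers, 4 were called higher, with Cpa3 at 2.82, and 1 lower, Kit at -2.76. Their summed level, most of it Kit in normoxia lung, was 1142 to 2815 in hyperoxia lung, against 4380 to 4887 in normoxia lung, with Mcpt1, Mcpt2 and Mcpt8 undetected in both. Mcpt4 and Tpsb2, which are among the 4 called higher, were detected on no normoxia lung array and entered the test through hyperoxia lung alone, as Ccr2 did among the macrophage markers. Of 8 genes shared by leukocytes, 2 were called lower in lung, Ptprcap at -1.09 (adjusted p = 0.019) and Coro1a at -0.65 (adjusted p = 0.04), and the 9 with a probe summed to 13900 to 24250 in hyperoxia lung, against 16470 to 20380 in normoxia lung. Ptprc, which encodes CD45, gave -0.28 in lung (adjusted p = 0.561) and was detected on 1 hyperoxia and 2 normoxia lung arrays. The call of Ptprcap was lost without hyperoxia lung replicate 1 or 2 or normoxia lung replicate 1 or 2 (adjusted p = 0.0598 to 0.0898), and that of Coro1a without hyperoxia lung replicate 1 or 2, any normoxia lung array or normoxia ileum replicate 2 (adjusted p = 0.0565 to 0.157).

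Over all genes tested in the ileum, 14.1% were called lower and 12.7% higher. There, 5 of the 8 leukocyte genes were called lower, with Cd52 at -1.38 (adjusted p = 0.00562) and Coro1a at -0.81 (adjusted p = 0.0135; adjusted p = 0.065 without normoxia ileum replicate 3). Their sum was 4490 to 6063 in hyperoxia ileum, against 8016 to 10040 in normoxia ileum. Markers of ileal epithelium moved too, with 5 of 9 called lower and 1 higher (median -0.47), led by the keratin gene Krt20 at -2.08 (adjusted p = 7.64e-06). Among the leukocyte genes, Cd48 was undetected in both groups, and Ptprc gave -0.43 (adjusted p = 0.286). Ptprcap was detected in normoxia ileum and on no hyperoxia ileum array, so it could hardly have come out higher. A further list was drawn up for lymphoid tissue stroma, which draws and holds lymphocytes in Peyer's patches and lymph nodes. It also holds genes of other cells, such as Ltb, a lymphocyte gene. Of its 12 tested genes, 8 were called lower in ileum. They included the T cell zone chemokines Ccl19 at -2.31 (SE 0.20, adjusted p = 7.64e-06) and Ccl21a at -1.70 (SE 0.36, adjusted p = 0.00513). Ccl21c, a close copy of Ccl21a, is counted too, at -1.69 (adjusted p = 0.00414), and may not be a separate reading. The summed level of the list was 2334 to 3912 in hyperoxia ileum, against 5297 to 6107 in normoxia ileum, with Gp2 undetected in both. In lung, 2 of 10 genes of this list were called lower, Ccl19 at -1.98 (adjusted p = 1.53e-05) and the lymphocyte gene Ltb at -1.55 (adjusted p = 0.00227), and 2 were called higher, among them Il7 at 1.23 (adjusted p = 0.000206). The shares over all genes tested in lung were 10.6% lower and 9.90% higher. The sources do not state whether a piece of ileum held a Peyer's patch.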

How the data were processed

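For each probe on the 12 arrays the authors deposited a mean bead intensity from GenomeStudio 2011.1 (named in the submitters' processing notes), with no background subtraction or normalization visible in the values. The deposited detection p-value sets a probe against the negative controls of its array. A second deposited table holds intensities that look background-subtracted and quantile-normalized. Its method was not stated, and it served as an alternative.

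The function neqc of limma 3.58.1 (R 4.3.3) applied normexp background correction, quantile normalization, an offset of 16 and log2. Probes with 1 gene symbol (34885 of 45281) were used, and between tissues detection on 3 or more of the 12 arrays was required. A linear model with 4 group means covered all arrays, and limma's moderated two-sided p-values were adjusted by Benjamini-Hochberg over all genes tested, with calls under 0.05. Probe-level results come from the same model over all probes. The unmoderated model that the methods name was an alternative. A gene undetected in a whole group has a bound, set by the lowest detected signal per array. The model was also run on simulated arrays with known changes and noise drawn separately for each gene. Such arrays do not copy genes that vary together, and nothing above rests on them.

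The genes and lists were chosen with earlier results of these data known. From each other list, at most 4 genes by size of the moderated statistic are named, plus Ptprc. Promoters come from RefSeq (GRCm38.p6), and figures were drawn with matplotlib 3.10.9.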

Additional observations from a re-analysis of the deposited data

Results flagged for a closer look

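The effect of hyperoxia differed between the tissues for 3 of the 18 genes by a test of the difference itself (effect in ileum minus effect in lung, limma), all in the positive direction, against 12.0% of all genes tested in that direction and 3100 of 12400 in either. The difference was 1.60 for Nkg7 (SE 0.46, adjusted p = 0.0223), 1.10 for Cd79b (SE 0.32, adjusted p = 0.0223) and 1.06 for Cd2 (SE 0.33, adjusted p = 0.0335), on the log2 scale. The hyperoxia ileum arrays of Cd2 were all below background, so its ileum effect has only a bound and its difference is a fitted value. Nkg7 was dim in normoxia ileum (mean log2 level 6.07), so a fall as large as in lung could not have been measured there. The hyperoxia arrays lay below the normoxia arrays without overlap for Nkg7 and Cd2 in both tissues, and for Cd79b in lung alone. Each group had 3 arrays, so no array was tested as an outlier.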

How the results depend on the processing

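The count of T cell genes called stayed within 1.5 times its main value in the lung (9, over all settings 8 to 9) and between tissues (6, over all settings 5 to 8). The count of B cell genes in lung, 8, was 5 with no detection filter and 4 with the ordinary linear model, and 4 to 8 with single arrays left out. In ileum, the T cell count of 7 ran from 4 to 8 with single arrays left out, and the B cell count of 4 was 7 with array weights. For the difference between tissues, the T cell count of 2 was 1 with the authors' normalized values and 0 with no detection filter or the ordinary model, and the B cell count of 1 was 2 with no background correction, 2 with an offset of 50, 0 with the ordinary model and 4 with array weights. With single arrays left out, both ran from 0 to 3, and the B cell count between tissues, 7, from 4 to 7. Array weights also raised the calls over all genes, to 2289 higher and 2384 lower in ileum and to 2280 and 2333 for the difference. The cause of these shifts was not tested.

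Deviations of same-numbered arrays from their group means correlated at r from -0.234 to 0.108 (18 pairs). Such correlations cannot show whether same-numbered samples came from the same pup, and the labels name no animal. Whether the numbers pair the samples is therefore not known. With the replicate number as a block, the T cell count was 9 in lung, 6 in ileum and 1 for the difference, and the B cell counts were 8, 4 and 1.

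The direction turned for Cd8b1 with the mean of its probes (-0.37 in lung, -0.72 in ileum, -0.37 between tissues) and for Cd22 in ileum with 75th percentile scaling (0.12). It turned for the difference of Cd3e without background correction (0.050), of Cd27 (-0.19) and Zap70 (-0.27) with the authors' values, and of Cd3g (0.033) and Pou2af1 (-0.37) with array weights. With single arrays left out, the difference ran from -0.83 to 0.0089 for Cd3e, -0.67 to 0.21 for Cd3g, -0.27 to 0.91 for Cd3d, -0.27 to 0.55 for Cd27, -0.15 to 0.32 for Zap70 and -0.31 to 0.47 for Pou2af1. Cd22 in ileum ran from -0.40 to 0.34, and Pou2af1 between tissues from -0.55 to 0.21. None of these had been called except Cd8b1 in lung and between tissues. A bead chip block was not run, as no source gives the chip. With 3 arrays a group and several genes near background, small differences were not detectable.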
